A study of Mus musculus with 4 samples.

Results

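Proteins that the fetal liver and the yolk sac secrete into blood were followed through 4 arrays made from muscle of mouse embryos. The set holds Afp, Alb, Ttr, Trf and the apolipoprotein genes Apoa1, Apoa2, Apoa5 and Apob, and serves as a reading of visceral RNA in pieces dissected as muscle. Its 8 genes were chosen by the measured signals of Afp and Alb, which separated the back arrays, so every value that involves the WT back array is given as a description. The platform annotation names a member on 19 of 45101 probe sets, of which 18 name a member alone. These 18 stand for 7 of the 18193 genes on the array, since the single probe set that names Trf also names Srprb, its neighbour on the chromosome. The arrays were MyoD-null limb (BALB/c, Myod null), WT limb (BALB/c), Myf5-null back (BALB/c, Myf5 null) and WT back (BALB/c), all at E13.5. Each group had 1 array, so there is no replicate error and no test over samples, and each difference below is one between single arrays. The labels do not give the number of embryos behind an array, the construct of either null allele, or how the pieces were dissected.

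Alpha-fetoprotein, the product of Afp, is the main plasma protein of the rodent fetus, made by visceral endoderm of the yolk sac and then by the hepatocyte precursors of the fetal liver. Albumin is its close relative and takes over in plasma after birth. Transthyretin (Ttr) carries thyroid hormone and, with retinol-binding protein, vitamin A, and is made by liver, yolk sac and choroid plexus. Transferrin (Trf) carries iron to the transferrin receptor. Apob is the scaffold of very-low-density and low-density lipoproteins, Apoa1 and Apoa2 are the main proteins of high-density lipoprotein, and Apoa5 supports the clearance of triglyceride by lipoprotein lipase. Skeletal muscle is not a main source of these proteins. The liver genes among them are controlled by factors such as HNF4, FOXA and C/EBP.

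The promoter letters of 3 members are shown because these genes had the clearest patterns over the arrays: Afp and Alb were highest in WT back, and Apoa5 was high in both mutant arrays. Each stretch holds the 250 bases before the gene's RefSeq start in the mouse build GRCm38.p6, on the plus strand: chr5:90490464-90490713 for Afp, chr5:90460620-90460869 for Alb and chr9:46268358-46268607 for Apoa5. Capitals mark matches on either strand to TTNNGCAA, a loose form of the C/EBP site, and to TGTTTNC, a form of the FOXA site.
Afp: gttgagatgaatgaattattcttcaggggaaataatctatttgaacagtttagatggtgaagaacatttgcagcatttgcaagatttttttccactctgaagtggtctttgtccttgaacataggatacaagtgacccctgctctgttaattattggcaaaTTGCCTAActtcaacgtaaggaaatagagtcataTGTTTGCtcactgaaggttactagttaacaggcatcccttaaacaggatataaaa
Alb: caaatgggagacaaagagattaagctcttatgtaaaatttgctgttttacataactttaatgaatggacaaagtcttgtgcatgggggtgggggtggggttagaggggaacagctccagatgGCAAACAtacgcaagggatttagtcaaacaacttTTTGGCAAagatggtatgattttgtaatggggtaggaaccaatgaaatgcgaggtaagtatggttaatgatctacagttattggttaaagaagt
Apoa5: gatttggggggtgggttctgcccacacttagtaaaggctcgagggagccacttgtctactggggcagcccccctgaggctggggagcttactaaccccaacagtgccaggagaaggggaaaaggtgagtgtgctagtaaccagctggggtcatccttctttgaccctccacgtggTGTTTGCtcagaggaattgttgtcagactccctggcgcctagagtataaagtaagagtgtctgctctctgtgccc
The table of promoters held 6 of the 8 members, and Apoa2 and Apoa5 are in it with more than 1 start. Matches to TTNNGCAA were in 4 members (Afp, Alb, Apoa2 and Apob) and in 9.56% of 32851 promoter stretches of this length. Those to TGTTTNC were in all 6 members and in 17.8% of all stretches. The motif letters were picked after these promoters had been read, none of the matched letters overlap in the 3 stretches shown, and a match is no measured binding site.

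The values are MAS5 signals rescaled to a common trimmed mean of 500 per array. A signal under 100 is printed as measured but has no order, and it was set to 100 for ratios, so that a ratio against it is a bound ("at least"). Counts of genes take differences of 2-fold or more in which the brighter array reached 200. At 100 or more were 56.0% of all probe sets in MyoD-null limb, 61.5% in WT limb, 63.7% in the back array labelled Myf5-null and 57.9% in WT back. The 3 prime over 5 prime signal ratio of Gapdh, a measure of RNA quality, lay between 6.46 in WT back and 12.2 in WT limb. That of Actb had the same extremes, 3.205 in WT back and 6.88 in WT limb. The arrays compared thus differed in this measure, and its part in the ratios below was not tested. Muscle genes were present throughout, with Acta1, the skeletal actin, at 6172 in MyoD-null limb and 9592 in WT limb, and at 18392 in the back array labelled Myf5-null and 27605 in WT back. The targeted Myod1 had 688 in MyoD-null limb against 1438 in WT limb, lower but well above the floor. A dimmer probe set of Myod1 read 92.1 against 209. A null allele is thus not read from the Myod1 values, and that genotype too is taken from the label. Myf5 had 583 in the back array labelled Myf5-null against 508 in WT back, so the genotype of that array rests on its label, and no source used here says where the probes lie relative to the deleted part.

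Most member probe sets were dim. Of the 18, 7 reached 200 in at least 1 array, 7 more reached 100, and 4 stayed under 100 in all 4 arrays. None reached 100 in all 4. In MyoD-null limb 2 of the 18 reached 100, against 7 in WT limb, and 6 did so in the back array labelled Myf5-null, against 9 in WT back. The WT back array was the highest of the 4 for 8 of the 14 probe sets that reached 100, the back array labelled Myf5-null for 4, and each limb array for 1. Afp alone gave 4 of those 8. Per gene, 5 members reached 200, and 3 of these were highest in WT back, as were 21.4% of the 12426 genes that reached 200 somewhere. The members were chosen by signals in that array, so nothing is read from this share.

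**Figure D1:**
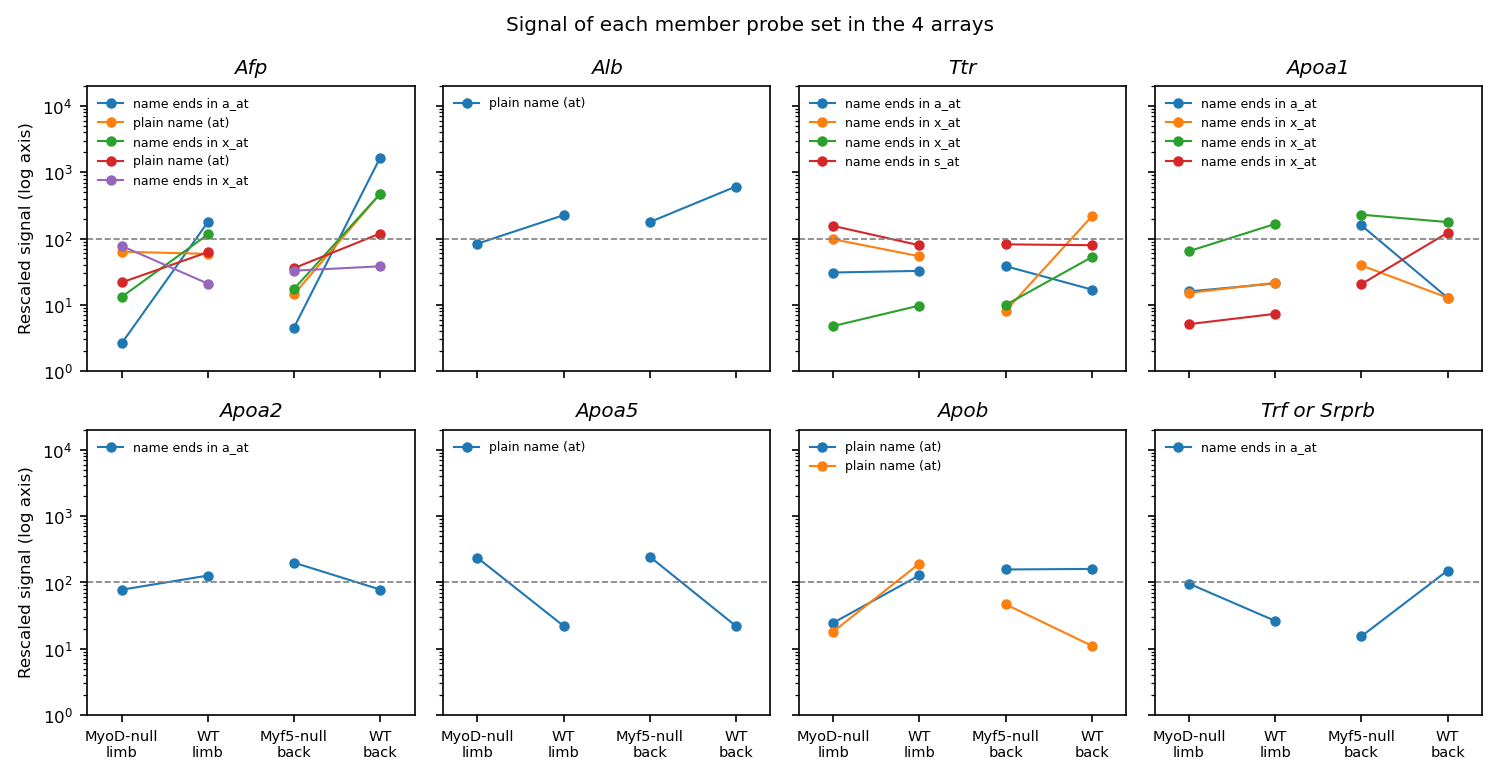
Rescaled signal (log axis) of each of the 19 probe sets that name a member, by gene, in the 4 arrays; 1 point is 1 array, lines join the mutant and WT array of a site, and the dashed line is the floor of 100. Afp and Alb rise toward WT back, at 1651 and 609, Apoa5 is above the floor only in both mutant arrays, at 236 and 245, and most other points lie near or under the floor.

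Afp, the fetal relative of albumin, had the widest range of all members. Its brightest probe set read 2.61 in MyoD-null limb and 176 in WT limb, and 4.52 in the back array labelled Myf5-null and 1651 in WT back. Only the WT arrays were above the floor, and WT back was 9.37-fold above WT limb. In the back array labelled Myf5-null it was at least 16.5-fold lower than in WT back, the lowest log2 ratio (-4.05) of the 18193 genes. That value chose the member and is not a finding. In the limb, which did not enter the choice, Afp was lower by a factor of at least 1.76 in MyoD-null than in WT, short of the 2-fold count. In bulk tissue, fewer cells that make a protein and less of its RNA per cell cannot be told apart.

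The other probe sets of Afp were dimmer, and most had the same shape. Another, whose name marks no shared probes, read 63.2 in MyoD-null limb and 58.7 in WT limb, and 14.4 in the back array labelled Myf5-null and 471 in WT back. One more, with probes that can match other sequences, read 13.1 and 115 in the limb pair, and 17.3 and 472 in the back pair, mutant array first. The next reached only 119, in WT back, with 35.7 in the back array labelled Myf5-null. Thus 4 of 5 were highest in WT back, and the fifth stayed under 100 everywhere, at 20.9 to 77.4. Only the brightest and the one with 115 were above 100 in WT limb, so the limb difference of Afp rests on those 2 probe sets, both with marked names.

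Alb encodes albumin, which binds fatty acids and keeps the osmotic pressure of plasma. Its only probe set read 83.5 in MyoD-null limb and 225 in WT limb, and 177 in the back array labelled Myf5-null and 609 in WT back. Both mutant arrays were lower than their own WT arrays, and back was higher than limb within each genotype class. In MyoD-null limb the signal was lower than in WT limb by a factor of at least 2.25, and it was 3.43-fold lower in the back array labelled Myf5-null than in WT back (log2 ratio -1.78). WT limb was 2.70-fold lower than WT back. The limb ratio lost its 2-fold size with a floor of 200, at -0.17, and with a pseudocount of 100, at -0.83.

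Of 16 muscle genes, 14 were below 0 in the limb pair and 15 in the back pair. Past 2-fold lower in the limb pair were 3, Ckm, Tnnt1 and Myod1, beside 6.64% of the genes at 200 in the pair. Myod1 is the gene targeted in that mutant, so its fall is no independent reading of muscle RNA. In the back pair 4 were past 2-fold lower, Myh8, Tnnt3, Ttn and Chrna1, beside 3.13% of the genes at 200 in the pair. The list also holds Myf5, the gene targeted in the back mutant. Myf5 was above 0 in both pairs, at 1019 in MyoD-null limb against 506 in WT limb, and desmin, Des, in the limb pair, at 382 against 300. The summed signal of the list was 57687 in MyoD-null limb and 86805 in WT limb, and 108006 in the back array labelled Myf5-null and 164718 in WT back, and 14 of the 16 were highest in WT back. Cartilage genes followed only the back difference, with a summed signal over 11 genes of 21450 in MyoD-null limb and 17973 in WT limb, and 4637 in the back array labelled Myf5-null and 20380 in WT back. The part of these tissues in the results for Afp and Alb was not tested.

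Ttr reached 200 in 1 array with 1 of its 4 probe sets. That probe set, whose name marks shared probes, read 97.5 in MyoD-null limb and 54.0 in WT limb, and 8.06 in the back array labelled Myf5-null and 215 in WT back. It was at least 2.15-fold lower in the back array labelled Myf5-null than in WT back. Another read 155 in MyoD-null limb and 79.1 in WT limb, and 81.6 and 79.3 in the back pair, the mutant array first. The remaining 2 stayed under 100 in all arrays, at 4.78 to 52.3. In WT back Ttr has a level by 1 probe set only, a pattern (200 or more there, under 100 in the other arrays) found for 17 of 18193 genes (0.0934%), and with a floor of 50 or without the rescaling, where other probe sets represent the gene, its back ratio was 0.04.

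The probe set shared by Trf and Srprb, which encodes a subunit of the receptor for signal recognition particles, read 96.0 in MyoD-null limb and 26.3 in WT limb, and 15.4 in the back array labelled Myf5-null and 151 in WT back. It cannot be given to either gene. The probe set of Srprb alone read 2428 in MyoD-null limb and 2189 in WT limb, and 2133 in the back array labelled Myf5-null and 2389 in WT back. Trf thus has no level of its own here. Its receptor Tfrc, which red cell precursors carry in large amounts, had 2408 in MyoD-null limb and 1984 in WT limb, and 1673 in the back array labelled Myf5-null and 2276 in WT back, with no 2-fold difference in any comparison.

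The apolipoproteins did not share the shape of Afp. The brightest probe set of Apoa1, the scaffold of high-density lipoprotein, read 64.5 in MyoD-null limb and 166 in WT limb, and 229 in the back array labelled Myf5-null and 177 in WT back. Its other 3 probe sets disagreed. One was above the floor only in the back array labelled Myf5-null, at 158, another only in WT back, at 122, and the last was under 100 in all arrays. Apoa2, the second protein of that particle, read 77.7 in MyoD-null limb and 127 in WT limb, and 199 in the back array labelled Myf5-null and 78.2 in WT back, a back ratio of at least 1.99-fold (log2 0.99) that falls just short of the count. Apob was read by a pair of probe sets. One gave 24.6 in MyoD-null limb and 128 in WT limb, and 157 in the back array labelled Myf5-null and 160 in WT back. The other gave 18.1 and 193 in the limb pair, and 46.9 and 11.1 in the back pair, mutant array first. Both Apob probe sets were above the floor in WT limb and under it in MyoD-null limb, at least 1.28-fold and 1.93-fold lower.

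Apoa5 was the only member that was higher in both mutant arrays. Its single probe set, with a plain name, read 236 in MyoD-null limb and 22.1 in WT limb, and 245 in the back array labelled Myf5-null and 22.0 in WT back. Each mutant array was above 200 and each WT array under the floor, at least 2.36-fold higher in the limb pair and at least 2.45-fold higher in the back pair. The mutant arrays differ in the targeted gene and in the site, with 1 array each. The same pattern, 200 or more in both mutant arrays and under 100 in both WT arrays, was found for 10 of 18193 genes (0.055%). Senp8, with 262 in MyoD-null limb and 74.1 in WT limb, and 263 in the back array labelled Myf5-null and 83.8 in WT back, is another. With a floor of 200 both ratios of Apoa5 fell short of 2-fold, at log2 0.24 in the limb pair and 0.29 in the back pair.

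**Figure D2:**
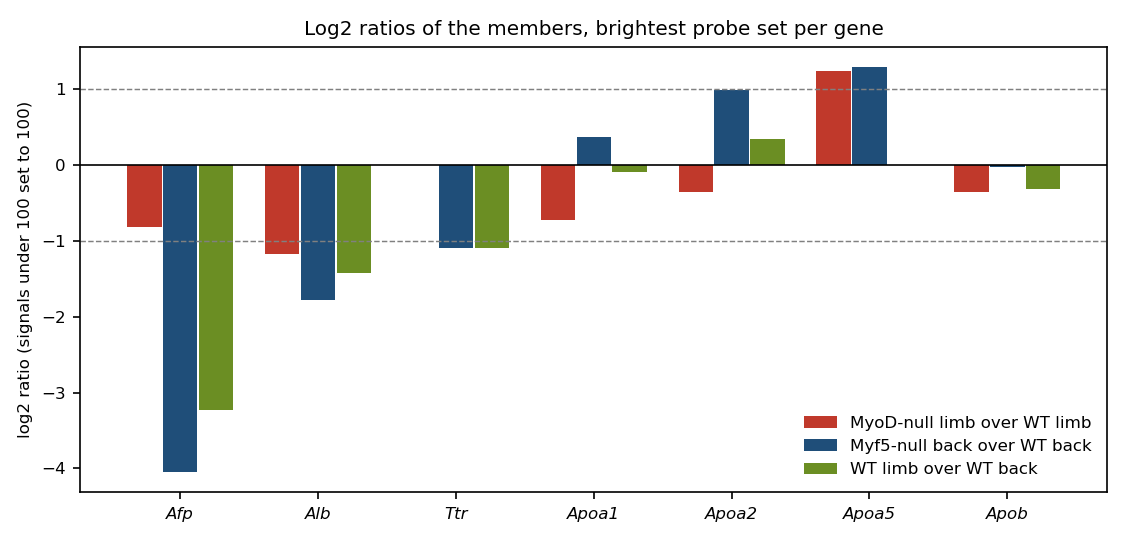
Log2 ratio, with signals under 100 set to 100, of the 7 members that have a probe set of their own, in MyoD-null limb over WT limb (red), the back array labelled Myf5-null over WT back (blue) and WT limb over WT back (green); dashed lines mark 2-fold. Bars for Afp (-4.05), Alb (-1.78) and Ttr (-1.10) point down in the back pair, and those of Apoa5 point up in both mutant comparisons, at 1.24 and 1.29.

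Counted per gene, members went both ways in each mutant comparison. Of the 7 members, 3 (Afp, Alb and Ttr) were at least 2-fold lower in the back array labelled Myf5-null than in WT back, where 2.0% of all genes were and 3.13% of those at 200 in the pair, and 1 (Apoa5) was at least 2-fold higher, where 4.44% and 6.95% were. This comparison chose the members, so nothing is read from the counts. In MyoD-null limb against WT limb 1 member (Alb) was at least 2-fold lower, beside 4.14% of all genes and 6.64% of those at 200 in the pair, and 1 (Apoa5) was at least 2-fold higher, beside 1.84% and 2.94%. Only 2 of the 7 reached 200 in either limb array, so no other member could be counted there. In WT limb against WT back 3 were at least 2-fold lower, again Afp, Alb and Ttr, beside 2.81% of all genes and 4.47% of those at 200, and 0 were higher, beside 4.25% and 6.76%. The comparison of the WT arrays shares the WT back array with the back pair, so the same bright signals enter both. The median log2 ratio of the members was -0.54 over 6 measured genes in the limb pair, -0.03 over 7 in the back pair and -0.71 over 6 between the WT arrays, where the medians of all measured genes were -0.04, 0.05 and 0.04.

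Where a gene had several probe sets at the floor or above in both arrays, their log2 ratios had a median SD of 0.35 in the limb pair, 0.32 in the back pair and 0.35 between the WT arrays. In the limb pair, which did not choose the members, Alb (-1.17), Apoa5 (1.24), Afp (-0.82) and Apoa1 (-0.73) had the largest ratios. Those of Apob (-0.36) and Apoa2 (-0.35) were smaller. Each of these ratios has an array under the floor, so it is a bound on a dim signal. The spread comes from probe sets at the floor or above in both arrays, so it does not measure the noise of these ratios. The other Afp probe set above the floor in WT limb had a smaller ratio, -0.21. Probe sets of 1 gene can differ by more than this median, as those of Afp in the back pair did, at -4.05 to 0.00. The spread covers probes, not embryos.

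Other proteins that the liver secretes into blood were read as a list of 54 genes, of which 44 have a probe set and 10 reached 200 in any array. They did not follow Afp: in the back array labelled Myf5-null against WT back 16 of 26 measured genes were above 0 and 10 below, with a median of 0.15, and 1 was at least 2-fold lower. That gene was Serpina1c, an alpha-1-antitrypsin, at 38.2 in the back array labelled Myf5-null against 206 in WT back. It had 117 in MyoD-null limb and 234 in WT limb, and belongs to a family of near-identical genes whose probes may be shared. In the limb pair 10 of 16 were below 0, with a median of -0.33, where 7816 of 14496 measured genes were below 0. There 3 were at least 2-fold lower, beside 4.14% of all genes and 6.64% of those at 200 in the pair. They were the plasmin inhibitor Serpinf2 (18.9 in MyoD-null limb against 254 in WT limb), afamin, Afm (77.7 against 218), and clotting factor F9 (106 against 217). The brightest genes of the list are ones that connective tissue also makes, such as Serpinf1 at 2672 in WT back and the complement inhibitor Serping1 at 974. F2, prothrombin, had 175 in the back array labelled Myf5-null and 243 in WT back, and under 100 in both limb arrays.

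The 14 other apolipoproteins included 8 that reached 200. Apoh, a liver protein that binds phospholipid, had 49.4 in MyoD-null limb and 178 in WT limb, and 42.4 in the back array labelled Myf5-null and 265 in WT back. Both mutant arrays were under the floor and both WT arrays above it, at least 1.78-fold lower in the limb pair and at least 2.65-fold lower in the back pair. A second probe set of Apoh gave 129 in MyoD-null limb and 193 in WT limb, and 56.9 in the back array labelled Myf5-null and 132 in WT back, in the same directions. Apol6, the only other one at least 2-fold lower in the back pair, had 48.9 in the back array labelled Myf5-null and 200 in WT back. Apoe, which macrophages and many other cells make, had 888 in MyoD-null limb and 1021 in WT limb, and 1948 in the back array labelled Myf5-null and 2370 in WT back. In the limb pair 0 of 9 measured genes of this list passed 2-fold in either direction, with a median of -0.34. Of all genes 4.14% were lower there and 1.84% higher.

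Genes that assemble, remodel or take up lipoproteins reached 200 for 17 of the 21 with a probe set. Of 19 measured in the back pair, 2 were at least 2-fold higher, beside 4.44% of all genes, and in the limb pair 2 of 19 were at least 2-fold lower, beside 4.14%, with medians of -0.09 and 0.00. Gpihbp1, which holds lipoprotein lipase on capillaries, was at least 3.51-fold higher in the back array labelled Myf5-null, at 351 against 56.9 in WT back. Mttp, which loads lipid onto Apob and is needed for its secretion, had 200 in MyoD-null limb and 140 in WT limb, and 120 in the back array labelled Myf5-null and 220 in WT back. Partners of Trf and Ttr in iron and thyroid hormone handling had medians of -0.14 in the limb pair and -0.05 in the back pair. Rbp4, the vitamin A carrier that Ttr binds, had 250 in MyoD-null limb and 314 in WT limb, and 8.18 in the back array labelled Myf5-null and 181 in WT back.

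Of 28 hepatocyte genes with a probe set, 16 were under 100 in MyoD-null limb and 12 in WT limb, and 13 in the back array labelled Myf5-null and 12 in WT back. Of 21 yolk sac and visceral endoderm markers, 13 and 7 were under 100 in the limb pair, and 10 and 6 in the back pair, mutant array first. Some markers that other cells also express were above the floor in all 4 arrays, such as the endocytic adaptor Dab2, at 3948 in MyoD-null limb and 3812 in WT limb, and 6298 in the back array labelled Myf5-null and 6819 in WT back. Hnf4a, the central hepatocyte regulator, had 187 in MyoD-null limb and 92.0 in WT limb, and 71.9 in the back array labelled Myf5-null and 224 in WT back, but its other 3 probe sets did not reach 100 in WT back, and one of them went the other way, at 160 in the back array labelled Myf5-null against 89.5 in WT back. Cps1, the first enzyme of the urea cycle, stayed under 100 in all 4 arrays, at 54.5 to 91.3. The asialoglycoprotein receptor Asgr1 did so too, at 3.58 to 7.25, as did both probe sets of Cubn, the endocytic receptor of visceral endoderm. Amn, the partner of cubilin, had 56.3 in MyoD-null limb and 63.6 in WT limb, and 132 in the back array labelled Myf5-null and 183 in WT back.

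Of the hepatocyte enzymes and surface markers, 11 reached 200, and in the back pair 11 of 19 measured were above 0, with a median of 0.06. Of all measured genes 7907 of 14684 were above 0 in that pair, with a median of 0.05. Ass1, a urea cycle enzyme that other tissues use too, was at least 2.89-fold higher in the back array labelled Myf5-null, at 289 against 66.2 in WT back. The summed signal of this list was 7621 in MyoD-null limb and 8430 in WT limb, and 14795 in the back array labelled Myf5-null and 15303 in WT back. Dlk1, which muscle precursors also express, gave 2914 and 3455 of this in the limb pair, and 10079 and 11034 in the back pair, mutant array first. Of 18 liver and endoderm transcription factors measured in the back pair, 1 was at least 2-fold lower, Hnf4a by its brightest probe set only. By the brightest probe sets 0 were higher, beside 4.44% of all genes. Dimmer probe sets of 3 were at least 2-fold higher in the back array labelled Myf5-null than in WT back. These were of Gata6 (296 against 74.2), Sox7 (218 against 59.1) and Gata4 (209 against 104). Their brightest probe sets had log2 ratios of -0.30, -0.01 and -0.06. Of 16 yolk sac and visceral endoderm markers, 13 were below 0 with a median of -0.18, where 6777 of 14684 measured genes were below 0, and 3 were at least 2-fold lower: Afp and Ttr, which are members, and Hnf4a. The 13 include these and the member Apob, and Afp chose the members in this comparison. In the limb pair 4 of 15 of that list were at least 2-fold lower, beside 4.14% of all genes and 6.64% of those at 200 in the pair. Among the 4 were the phospholipase relative Pla2g12b, at 94.8 in MyoD-null limb against 311 in WT limb, and the zinc carrier Slc39a4, at 29.9 against 264. The list as a whole hardly moved in this pair. Its median log2 ratio, -0.09, was near the -0.04 of all measured genes, and 6 of the 15 had a positive ratio and 9 a negative one.

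Blood and other organs were read in the same way. Red cell genes, which fetal liver also contains in its blood-forming cells, had medians of -0.24 in the limb pair and -0.26 in the back pair, with 0 of 13 and 1 of 14 past 2-fold. By its brightest probe set the embryonic globin Hbb-y was 81483 in MyoD-null limb and 115330 in WT limb, and 128132 in the back array labelled Myf5-null and 79867 in WT back. Another probe set was also highest in the back array labelled Myf5-null, at 124937. The dimmest was highest in WT limb, at 28373, with 26423 in the back array labelled Myf5-null and 24151 in WT back (log2 ratio 0.13). Of the 12 red cell genes that reached 200, 3 were highest in WT back. The anion exchanger Slc4a1 was one, with 451 in MyoD-null limb and 759 in WT limb, and 528 in the back array labelled Myf5-null and 842 in WT back, and the erythroid factor Klf1 another, with 147 and 263 in the limb pair, and 226 and 308 in the back pair, mutant array first. By these probe sets both had the same order over the arrays as Alb, with steps short of 2-fold between neighbours. Another probe set of Slc4a1 did not have that order. It read 413 in MyoD-null limb and 499 in WT limb, and 303 in the back array labelled Myf5-null and 721 in WT back. In the list of gut, pancreas, lung, kidney and heart, the genes at least 2-fold lower in the back array labelled Myf5-null were Nppa, Myh6 and the heart and forelimb factor Tbx5, whose dimmer probe set had a back ratio of -0.09. Nppa, the atrial natriuretic peptide of heart, had 154 in MyoD-null limb and 21.2 in WT limb, and 110 in the back array labelled Myf5-null and 370 in WT back. Myh6, the cardiac alpha myosin, which developing skeletal muscle can also express, had 88.9 in MyoD-null limb and 159 in WT limb, and 139 in the back array labelled Myf5-null and 461 in WT back. Its other probe set stayed under 100 in all 4 arrays, at 4.12 to 54.4. The atrial light chain Myl7 was 14.6 in MyoD-null limb and 50.7 in WT limb, and 112 in the back array labelled Myf5-null and 87.4 in WT back. Heart genes of the list did not go one way. Nkx2-5 had 414 in the back array labelled Myf5-null against 226 in WT back, and Nppb had 233 against 129, both short of 2-fold. The lung genes Sftpc and Sftpb were at least 2-fold higher in the back array labelled Myf5-null, at 227 and 223, against 68.2 and 81.0 in WT back. The gut gene Vil1 stayed under 100 in all arrays. The part of other organs in the signals of the members was not tested.

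**Figure D3:**
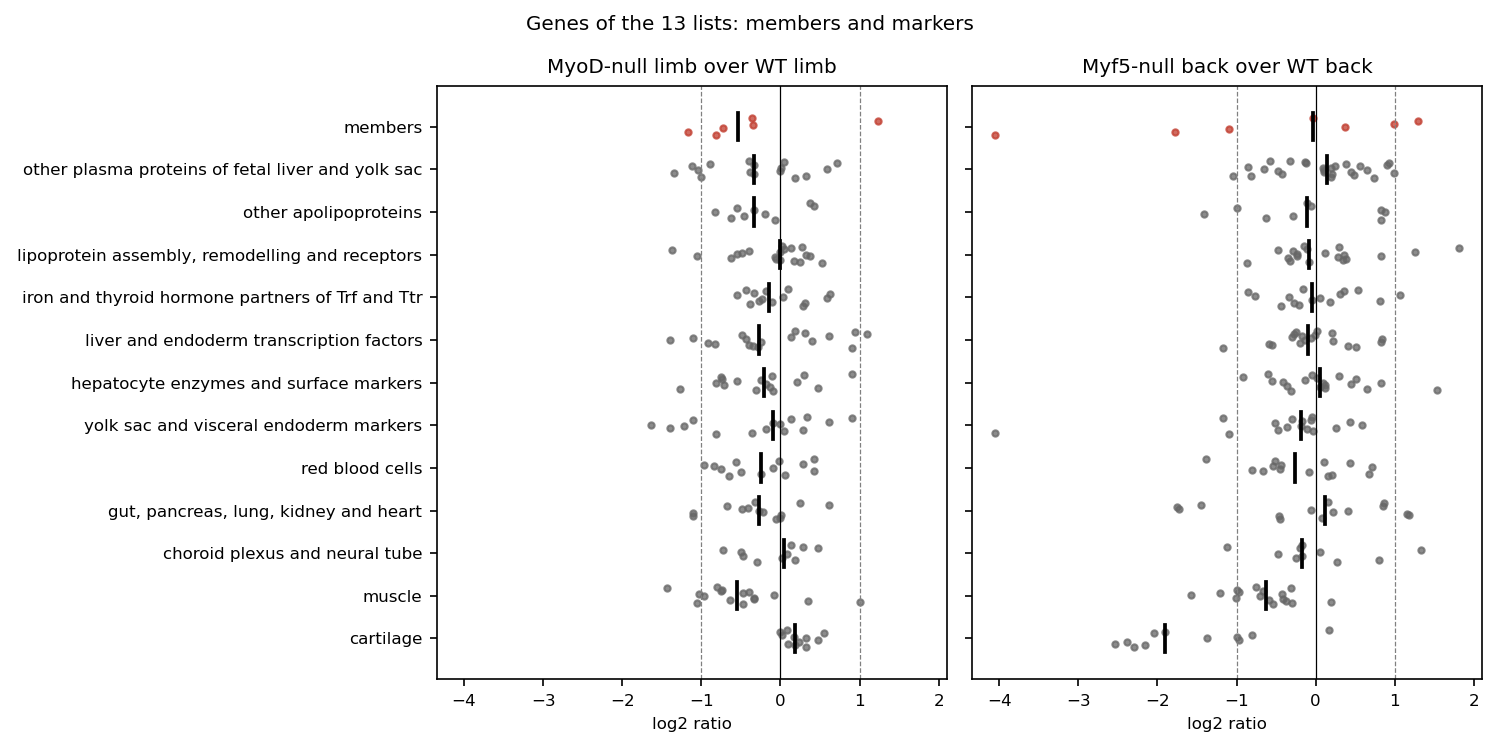
Log2 ratio of each measured gene in 13 lists, in MyoD-null limb over WT limb (left) and the back array labelled Myf5-null over WT back (right); 1 point is 1 gene, members in red, thick bars are list medians and dashed lines mark 2-fold. In the back pair the members run from -4.05 to 1.29 around a median of -0.03, while the medians of muscle (-0.63) and cartilage (-1.90) lie below 0.

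Among the 5 genes nearest to Afp in shape over the 4 arrays, 3 are of striated muscle. Likeness was the Euclidean distance between log2 signals, each minus the mean of the gene's 4 arrays, among 12425 other genes that reached 200. Clone-type gene names were passed over in naming the 5. Nearest was Myl2, a regulatory light chain of heart and slow muscle, at a distance of 0.68, with 1226 in WT back and under 100 in the other arrays. Next were Alb (1.69), Myh6 (1.75), the oxygen store myoglobin, Mb (1.76), and Slco2b1, an organic anion carrier of liver and muscle (1.78). Another probe set of Slco2b1 lacked this shape, with 162 in the back array labelled Myf5-null against 144 in WT back. Ttr was the 87th nearest to Afp, at 2.41, and Apoa5 the 12217th, at 4.35. All 5 nearest genes were highest in WT back, which the measure makes likely for any gene near Afp.

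Nearest to Alb was Csrp3, a Z-disc protein, at a distance of 0.37, followed by Myh6 (0.38), the muscle methyltransferase Smyd1 (0.59), the slow myosin Myh7 (0.60) and Klhl41 (0.64), which stabilises the myofibril. Csrp3 had 215 in MyoD-null limb and 474 in WT limb, and 310 in the back array labelled Myf5-null and 968 in WT back, the same order as Alb. Smyd1 did not have that order, with 325 in WT limb and 360 in the back array labelled Myf5-null, and one of its other probe sets read 442 in the back array labelled Myf5-null against 342 in WT back. WT limb and the back array labelled Myf5-null differed by less than 2-fold in Alb (225 and 177), Csrp3 and Smyd1. The order of those arrays is thus not read as a trait of a gene. Among the members, Ttr was the 157th nearest to Alb, at 1.12, Apoa1 the 1565th, at 1.63, and Afp only the 2145th, at 1.69. Alb thus ranked near Afp, but Afp did not rank near Alb. The distance uses 4 points that differ in site and genotype together, and it is a description of these arrays.

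**Figure D4:**
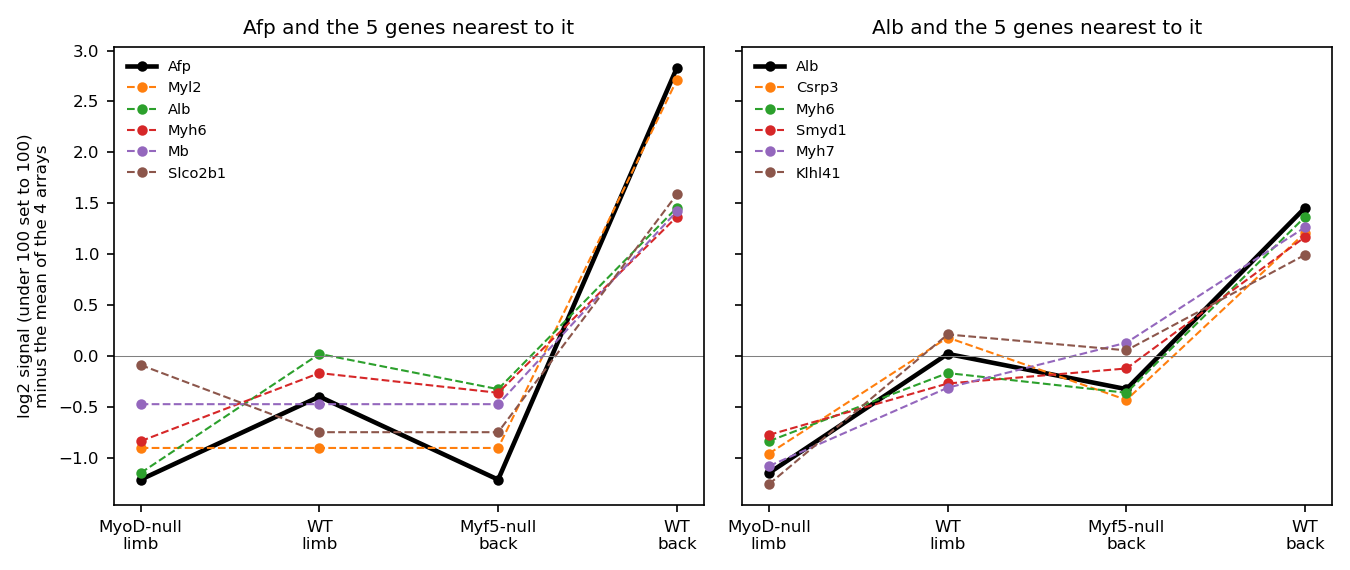
Log2 signal (signals under 100 set to 100) minus the mean of the 4 arrays, for Afp (left, black) and Alb (right, black) and the 5 genes nearest to each in dashed colours; 1 point is 1 array. All curves peak in WT back, with Myl2 closest to Afp (distance 0.68) and Csrp3 closest to Alb (0.37).

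Genes that lie beside a member on the chromosome were read for the same patterns. Alb and Afp are next to each other on chromosome 5, and Afm, a further gene of this albumin family row, had 77.7 in MyoD-null limb and 218 in WT limb, and 106 in the back array labelled Myf5-null and 83.1 in WT back. It was thus highest in WT limb, not in WT back, and a dimmer probe set of Afm was also highest there, at 132. Ankrd17, on the other side of Alb, had 2068 in the back array labelled Myf5-null and 2540 in WT back. Apoa1, Apoc3, Apoa4 and Apoa5 form a row on chromosome 9. Within it Apoa4 stayed under 100 in all arrays, and Apoc3, an inhibitor of triglyceride clearance, had 83.7 in MyoD-null limb and 105 in WT limb, and 41.3 in the back array labelled Myf5-null and 155 in WT back, so it was highest in WT back. Apoa5 alone in that row was above 200 in MyoD-null limb. Zpr1, next to Apoa5, had 505 in MyoD-null limb and 581 in WT limb, and 754 in the back array labelled Myf5-null and 545 in WT back.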

How the data were processed

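Gene expression was measured on 1 Affymetrix array per group in muscle dissected from limb or back of mouse embryos at E13.5, from 6 µg of total RNA per array per the labels' protocols. The authors deposited 1 linear intensity for each probe set on each array. Per the submitters' processing notes it comes from MAS5, and no version was found in the sources used here. The 2% trimmed means of the deposited columns were 1477 to 1479, so the arrays had been scaled to 1 target. Only this table of values was used here.

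A factor per array brought the 2% trimmed mean, controls left out, to 500. A floor of 100 was then applied before log2 ratios between arrays. Names came from the annotation of the platform: 34958 of 45101 have 1 symbol, 932 have several and name no gene here, and 9211 are not listed. The symbols of all 19 member probe sets were the same in a RefSeq table of GRCm38.p6 by Entrez number. The probe set brightest by mean log2 stood for its gene. Names ending in _a_at, _s_at or _x_at, as on 12 of the 18 member probe sets that name a member alone, mark probes shared between transcripts or similar sequences. Promoters came from RefSeq, build GRCm38.p6.

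The members and the 12 further lists were chosen with earlier results of these data known. Named genes were all members, up to 4 genes per list with the largest ratios past 2-fold, up to 4 with the highest signal in WT back, and the 5 genes nearest to Afp and to Alb. The text gives part of these, and others, such as cell type markers, Senp8 and chromosomal neighbours, were chosen after their values were seen. The number of arrays limits the precision. Alternatives were 8 processing settings and 2 other folds. All steps recovered known changes when tested on simulated arrays, with Python 3.11.15 with numpy 2.4.6, pandas 2.3.3 and statsmodels 0.14.6.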

Additional observations from a re-analysis of the deposited data

How the results depend on the processing

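The number of arrays, and dim signals near the floor, limit every value. Of 159 member ratios under the 8 alternative settings, 110 moved by less than the median spread between probe sets and 47 by more. The other 2 were past 2-fold in the main setting and changed sign. A sign change of a ratio short of 2-fold was not counted apart. Those 2 were the back ratio of Ttr, at 0.04 with a floor of 50 and 0.04 without rescaling, where another probe set represents it. Afp in the back pair ran from -5.61 without rescaling to -2.24 without shared-probe probe sets or as a median over them. In the limb pair it ran from -2.38 without rescaling to 0.00 with a floor of 200. Alb in the back pair ran from -1.94 to -1.35. Of 312 list medians, 295 moved by less than that spread.

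Counts of members at least 2-fold different, 1 higher and 3 lower in the back pair, 1 and 1 in the limb pair, and 0 and 3 between the WT arrays, stayed within 1.5 times in 50 of 60 repeats. Without rescaling, 2 were higher in the back pair and 4 lower in the limb pair. With a floor of 200, 0 were higher in the back pair and 0 higher and 0 lower in the limb pair. With a pseudocount of 100, 0 were lower in the limb pair. At 3-fold, 0 were higher in the back pair, 0 higher and 0 lower in the limb pair, and 1 lower in WT limb against WT back.

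Counts over all genes, higher and lower, were 334 and 753 in the limb pair, 808 and 364 in the back pair, and 774 and 511 in WT limb over WT back. They were 1129 and 2077 in the limb pair, 2087 and 1231 in the back pair, and 2091 and 1374 in WT limb over WT back without rescaling, since the floor is then lower relative to the signals. With a floor of 200 they were 115 and 181 in the limb pair, 152 and 123 in the back pair, and 247 and 261 in WT limb over WT back. With a pseudocount of 100 they were 153 and 342 in the limb pair, 431 and 171 in the back pair, and 408 and 273 in WT limb over WT back. As a median over probe sets they were 179 and 430 in the limb pair, 494 and 203 in the back pair, and 450 and 319 in WT limb over WT back. In the back pair, 519 were higher under quantile normalization and 509 after loess. The share of calls that were higher was 68.9% in the back pair, against 50.1% under quantile normalization and 52.8% after loess, and 30.7% in the limb pair, against 45.6% and 43.5%. With a floor of 200 it was 55.3% in the back pair and 48.6% in WT limb over WT back, against 60.2% at a floor of 100. No paired analysis was possible because each group has 1 array.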
